A study of Mus musculus with 6 samples.

Results

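The 7 solute carrier families SLC1, SLC3, SLC6, SLC7, SLC36, SLC38 and SLC43 hold most of the transporters that carry amino acids and related small molecules across the plasma membrane and the lysosomal membrane. Every protein-coding gene of the deposited count table whose GENCODE symbol begins with Slc1a, Slc3a, Slc6a, Slc7a, Slc36a, Slc38a or Slc43a was taken, which gave 64 genes out of 49585 gene IDs. A further 3 symbols with these prefixes were noncoding and were left out. SLC6 had 21 of the 64 genes, SLC7 16, SLC38 11, SLC1 7, SLC36 4, SLC43 3 and SLC3 2. The choice went by symbol alone: Slc7a6os, named for lying opposite Slc7a6, is not a transporter, and some SLC6 and SLC43 proteins carry serotonin, taurine, creatine or purine nucleobases in place of amino acids.

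RNA-seq was done on 6 libraries of mouse acute myeloid leukemia cells that carry the KMT2A-MLLT3 fusion in every group. The cells came from the marrow of moribund mice and were grown with interleukin 3, interleukin 6 and stem cell factor. Libraries labelled NT come from leukemia cells for which no DOT1L overexpression is named. Libraries labelled Low and High are cells transduced with DOT1L and sorted for low and for high expression, collected 3 days after the sort. The labels do not expand NT and do not say whether its cells were transduced or sorted, so handling and DOT1L cannot be told apart in comparisons with NT. Each label has 1 library of leukemia K3117 and 1 of leukemia K3174. The library titles are the only source for reading K3117 and K3174 as leukemias, and no label says that they came from separate mice. The p-values therefore measure the spread between these samples, which may be technical.

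Solute carriers of these families work in a division of labour. Heavy chains of the SLC3 family (Slc3a2 is CD98) bring light chains of the SLC7 family to the cell surface, where the pair exchanges one amino acid for another. SLC1 and SLC38 proteins use the sodium gradient to load cells with glutamine, alanine, serine and glutamate. Some SLC36 proteins use protons to move small amino acids out of lysosomes and endosomes, and some SLC43 proteins let large neutral amino acids pass down their gradient. Several of the genes are textbook targets of ATF4, the transcription factor of the amino acid response, which binds C/EBP-ATF response elements as a dimer, and of NRF2, which binds antioxidant response elements.

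The light chain genes Slc7a8, Slc7a11 and Slc7a7 belong to 1 family, share the heavy chain Slc3a2 as partner, and passed the test in different directions for High against NT. The stretches upstream of their RefSeq transcription starts that no annotated exon covers are therefore shown (RefSeq windows, GRCm38.p6, minus strand, 5′ to 3′), with capitals marking each match to TGATGNAA, the core of the C/EBP-ATF response element, on either strand. For Slc7a7 only windows with a match were eligible to be shown, a condition not set for Slc7a8 and Slc7a11.
Slc7a8, higher in High, chr14:54781947-54782136: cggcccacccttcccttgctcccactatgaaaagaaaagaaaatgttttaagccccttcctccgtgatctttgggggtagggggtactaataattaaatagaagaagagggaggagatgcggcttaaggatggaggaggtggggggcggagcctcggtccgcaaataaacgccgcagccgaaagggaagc
Slc7a11, higher in High, chr3:50443615-50443863: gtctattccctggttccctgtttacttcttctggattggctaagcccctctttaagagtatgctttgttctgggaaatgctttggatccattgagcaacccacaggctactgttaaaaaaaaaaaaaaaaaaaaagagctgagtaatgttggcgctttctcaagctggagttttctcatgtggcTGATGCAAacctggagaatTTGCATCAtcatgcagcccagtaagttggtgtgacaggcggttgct
Slc7a7, lower in High, chr14:54417945-54418194: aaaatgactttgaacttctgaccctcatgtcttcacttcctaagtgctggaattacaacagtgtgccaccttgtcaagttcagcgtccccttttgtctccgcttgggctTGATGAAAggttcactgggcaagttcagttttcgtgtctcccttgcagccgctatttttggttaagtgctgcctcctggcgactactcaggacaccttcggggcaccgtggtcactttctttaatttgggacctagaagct

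The Slc7a11 stretch had 2 matches, on opposite strands, whose first bases lay at -66 and -47 from the start. The Slc7a7 stretch had 1 match, at -141, and its window a second one from -1, which runs across the start and so past the end of the stretch shown. The Slc7a8 stretch had none. Because the Slc7a7 window was picked for holding a match, the matches in the stretches shown cannot be compared between these genes. RefSeq windows of 250 bases before to 50 bases after a start were at hand for 46 of the 64 genes, and for 23 of the 33 genes that were tested below. The core was in 4 of the 38 windows of those 23 genes (10.5%), which belonged to Slc1a4, Slc7a11 and Slc7a7, and in 3.97% of all 32851 windows. CACGTG, the E-box, was in 7.89% of the same 38 windows and in 7.15% of all windows. TGACNNNGC, the core of the antioxidant response element, was in 23.7% of them and in 12.4% of all windows. Both strands were searched and windows of 1 gene can overlap, so these shares are descriptions.

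Total counts per library ranged from 22908445 to 33265848, and the 64 genes took between 0.268% and 0.298% of them. Dot1l, by which the cells were sorted, did not separate the labels: NT libraries had 127.8 and 158.0 CPM, Low libraries 183.7 and 152.0 CPM, and High libraries 149.8 and 136.4 CPM (K3117 and K3174 in each case). Its counts need not include the introduced DOT1L, and groups are called by their labels here. All 8 markers of myeloid leukemia cells had counts. The 10 late neutrophil markers summed to 20.7 and 115 CPM in NT, 105 and 1250 CPM in Low, and 1530 and 6850 CPM in High (K3117 and K3174 in each case). The 7 mast cell and basophil markers summed to 40 and 111 CPM in NT, 89 and 223 CPM in Low, and 369 and 723 CPM in High, and the 8 monocyte and macrophage markers to 1310 to 1510 CPM in High and 791 to 944 CPM in NT. Ms4a1 of the B cell list, Cd3e and Cd8a of the T and NK cell list, Col1a2 and Col3a1 of the stromal list and Snap25, Syt1 and Rbfox3 of the neural list were at 0 in every library. The 6 T and NK cell markers summed to 42.8 to 54.8 CPM in High and 8.03 to 22.1 CPM in NT, the 6 megakaryocyte markers to 44.9 to 61.1 CPM in High and 29.9 to 33.5 CPM in NT, and the 8 erythroid markers to 7.77 to 9.25 CPM in High and 6.74 to 19.2 CPM in NT. The 6 neural markers summed to 60 to 74.7 CPM in High and 41.5 to 47.3 CPM in NT. The 7 markers of the stromal list, which includes endothelium, summed to 115 to 182 CPM in High and 152 to 195 CPM in NT. For the 5 B cell markers the sums were 11.4 to 11.5 CPM in High and 9.56 to 17.2 CPM in NT. The neutrophil, mast cell, monocyte, T and NK cell, megakaryocyte and neural sums were thus higher in both High libraries than in both NT libraries. The same held for the sum of the myeloid leukemia markers. The megakaryocyte sum was lowest in Low, and the erythroid, stromal and B cell ranges of High and NT overlapped. Their part in the results on the transporters was not tested, and in bulk RNA fewer cells of a type and less RNA per cell cannot be told apart.

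At least 1 count was found for 47 of the 64 genes, and 33 passed the filter on low counts that precedes the test. The 33 comprised 10 SLC7, 6 SLC6, 6 SLC38, 4 SLC36, 3 SLC1, 3 SLC43 genes and Slc3a2. Of the 31 others, 17 had no count in any library and 14 had between 1 and 12 counts in their highest library. A count of 0 allows up to 3 counts, or between 0.09 and 0.133 CPM, depending on the library. SLC6, whose members mostly serve neurons, gut and kidney, had 9 genes without a count, and SLC7 had 4. Slc6a20a, an imino acid transporter with a close paralog in Slc6a20b, had 10 counts in K3117 High and 5 in K3117 NT, but 0 in K3174 High and 1 in K3174 NT. Slc38a5, a glutamine exporter and importer of the SLC38 family, had 12 counts in K3174 High, 1 in K3117 High and 0 in both NT libraries. Set at 1 CPM in 2 libraries, the number of expressed genes was 31.

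Levels between genes were compared as CPM per kilobase of annotated exon. Slc7a5, the light chain that with CD98 brings leucine and other large neutral amino acids into dividing cells, was the highest at 86.9 ± 14.8 CPM per kilobase (SD over the 6 libraries). Slc3a2, the CD98 heavy chain, followed at 82.2 ± 6.28, and Slc1a5, the main sodium-dependent glutamine importer, at 58.7 ± 6.74. The ranges of Slc7a5 and Slc3a2 over the 6 libraries overlapped, so their order is not fixed. Next came Slc38a10 at 35.4 ± 3.35 CPM per kilobase and Slc38a2, the amino-acid-responsive sodium-coupled transporter, at 28.3 ± 2.01. Slc43a3, Slc38a1, Slc7a1, Slc6a6 and Slc7a6 stood between 24.5 ± 3.76 and 20.9 ± 2.60 CPM per kilobase, and their ranges overlapped with each other. These 10 genes held between 82.4% and 88.9% of all counts on the 64 genes. The lowest tested gene was Slc7a3, a cationic transporter, at 0.0799 ± 0.0587 CPM per kilobase.

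**Figure D1:**
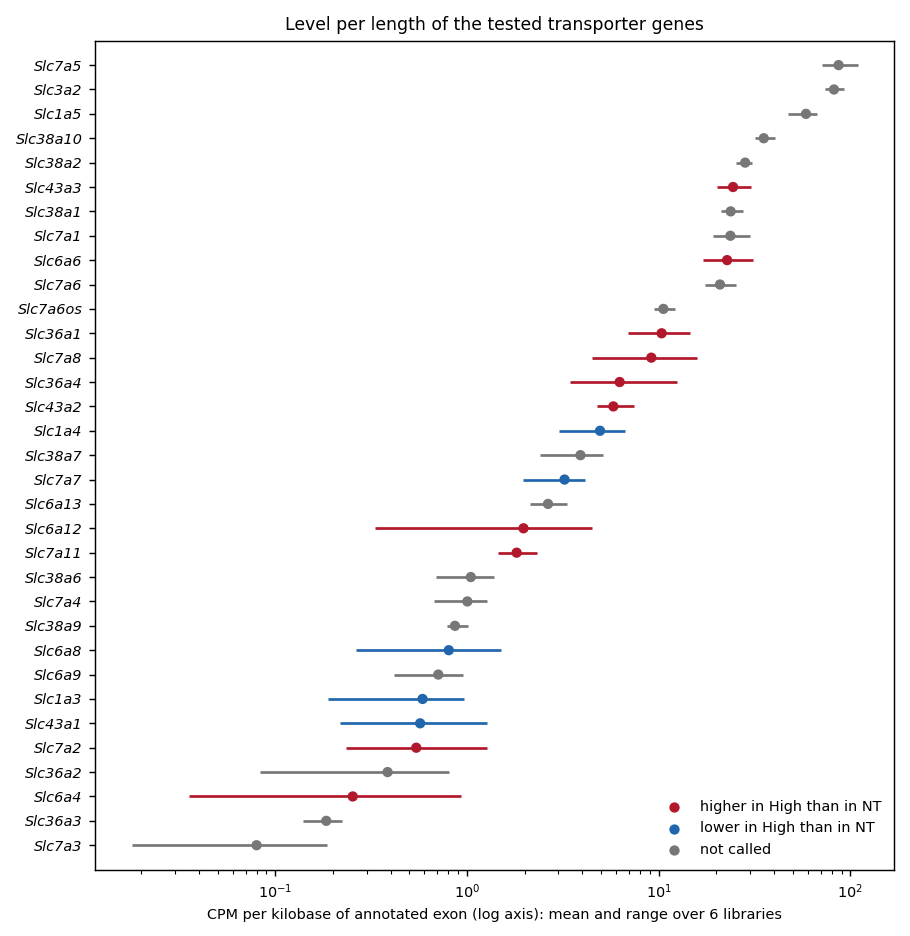
Level of the 33 tested transporter genes in CPM per kilobase of annotated exon on a log axis, with the mean as a point and the range over 6 libraries as a line. Slc7a5 and Slc3a2 lie at the top with overlapping ranges, and 2 of the 10 highest genes, Slc43a3 and Slc6a6, are coloured as higher in High than in NT.

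High was compared with NT to ask how the transporters differed in the cells sorted for high DOT1L. Of the 33 tested genes, 10 were higher in High and 5 were lower at an adjusted p of 0.05 (quasi-likelihood test of edgeR, leukemia as block, Benjamini-Hochberg over 15812 genes). The shares of 30.3% higher and 15.2% lower compare with 10.0% higher and 7.32% lower among all genes tested. The median fitted log2 fold change was -0.03 over the 33 genes and -0.01 over all genes, while the median of its absolute size was 0.46 over the 33 genes and 0.27 over all genes. The 10 highest genes by level included 2 of the 15 that passed, both higher in High. The summed CPM of the 64 genes was 2593 (NT), 2906 (Low) and 2779 (High) in K3117, and 2991 (NT), 2730 (Low) and 2801 (High) in K3174, with no common order. Under upper quartile scaling, where the median over all genes was -0.11, 7 were higher and 8 lower. Without the block, 4 passed (Slc6a12 and Slc7a8 higher, Slc1a4 and Slc43a1 lower), against 493 of all 15812 genes. When each library was left out in turn, the number that passed varied between the runs, and so did the number over all genes. A value in brackets after a left-out library, the block or a scaling is the edgeR adjusted p of that refit, and after DESeq2 the adjusted p of that tool.

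**Figure D2:**
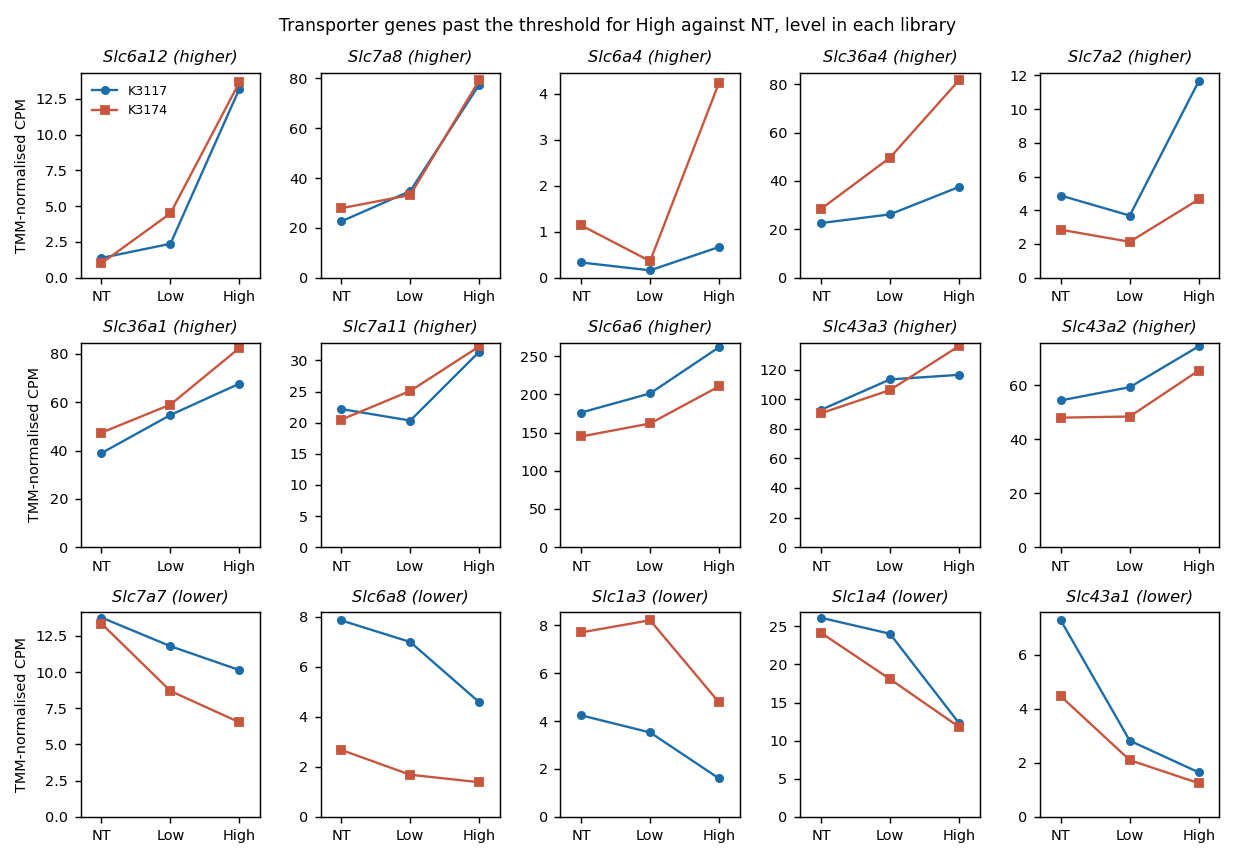
TMM-normalised CPM of the 15 genes that passed the test for High against NT, by label (NT, Low, High) and leukemia, 1 library per point, with a linear axis from 0 in each panel. The High point lies on the stated side of the NT point in both leukemias for each of the 15 genes. Slc6a12 has the widest gap relative to its NT level, though not in CPM.

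Among the CD98 partners, Slc7a8 rose, Slc7a11 rose, Slc7a7 fell, and the heavy chain and the most abundant light chain did not pass. Slc7a8 (ENSMUSG00000022180.6, chromosome 14, 54722209 to 54781946, minus strand, all positions in GRCm38), an exchanger of neutral amino acids, among them small ones such as glycine and alanine, had a CPM of 22.6 in NT, 34.8 in Low and 77.5 in High for K3117 and of 27.9 in NT, 33.2 in Low and 79.2 in High for K3174. Both High libraries lay above both Low and both NT libraries. The level was 78.4 ± 1.22 CPM in High and 25.3 ± 3.73 CPM in NT (SD, n = 2 each), 3.12-fold higher in High (log2 1.64 ± 0.14, SE, 95% interval of the fold 2.52 to 3.85, edgeR adjusted p = 1.39e-05). High also exceeded Low by log2 1.20 ± 0.14 (edgeR adjusted p = 0.000439), while Low against NT gave 0.44 ± 0.14 (edgeR adjusted p = 0.137).

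Slc7a11 (ENSMUSG00000027737.10, chromosome 3, 49892526 to 50443614, minus strand), the cystine and glutamate exchanger that feeds glutathione synthesis, was at a CPM of 22.2 in NT, 20.3 in Low and 31.4 in High for K3117, and of 20.5 in NT, 25.1 in Low and 32.2 in High for K3174. Both High libraries exceeded both NT libraries, and Low lay on different sides of NT in the leukemias. High over NT gave a log2 fold change of 0.57 ± 0.15 (SE, edgeR adjusted p = 0.0233). It no longer passed without K3117 High (edgeR adjusted p = 0.156), K3174 NT (0.0771) or K3174 High (0.0951), nor without the block (0.112) or with upper quartile scaling (0.051).

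Slc7a7 (ENSMUSG00000000958.9, chromosome 14, 54369442 to 54417780, minus strand), which exchanges cationic for neutral amino acids and is mutated in human lysinuric protein intolerance, went the other way. Its CPM was 13.8 in NT, 11.8 in Low and 10.1 in High for K3117, and 13.4 in NT, 8.70 in Low and 6.53 in High for K3174. The order over the labels was NT, Low, High from highest to lowest in both leukemias, and both High libraries lay below both NT libraries. High against NT gave a log2 fold change of -0.73 ± 0.20 (SE, edgeR adjusted p = 0.0237), which did not pass without K3174 NT (0.135) or K3174 High (0.284), nor without the block (0.234). A stretch of 7.0% of the annotated exons of Slc7a7 is shared with Oxa1l on the other strand, which had 11710 counts over the 6 libraries against 1843 for Slc7a7. The use of strand in counting is not given in the sources used here, so reads there cannot be assigned. Slc7a7 and Slc7a8 lie 304428 bp apart on chromosome 14 and passed in opposite directions.

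Slc3a2, the heavy chain shared by these light chains, had 285 and 295 CPM in High and 262 and 326 CPM in NT (K3117 and K3174 in each case). The groups overlapped, and the log2 fold change was -0.01 ± 0.13 (SE, 95% interval of the fold 0.814 to 1.21, edgeR adjusted p = 0.964). Slc7a5 had 282 and 264 CPM in High and 309 and 407 CPM in NT. Both High libraries lay below both NT libraries, with a log2 fold change of -0.39 ± 0.15 (SE, edgeR adjusted p = 0.112). Slc7a6, the broadly expressed relative of Slc7a7, had 88.3 and 79.7 CPM in High and 99.0 and 115 CPM in NT, with -0.35 ± 0.13 (SE, edgeR adjusted p = 0.0844). Without the K3117 NT library both would pass as lower in High, Slc7a5 at -0.68 (edgeR adjusted p = 4.69e-05) and Slc7a6 at -0.50 (edgeR adjusted p = 0.00326), and they also passed with upper quartile scaling (0.0385 and 0.0254).

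Of the 4 tested genes of the cationic branch of SLC7, Slc7a2 rose and the others did not pass. Slc7a2 (ENSMUSG00000031596.15, chromosome 8, 40862396 to 40922308, plus strand), which brings arginine into macrophages for nitric oxide synthase and arginase, was at a CPM of 4.87 in NT, 3.68 in Low and 11.7 in High for K3117, and of 2.85 in NT, 2.13 in Low and 4.64 in High for K3174. Within each leukemia High was the highest and Low the lowest of the 3 labels, but the 2 leukemias overlapped between labels. The log2 fold change was 1.01 ± 0.24 for High over NT (SE, edgeR adjusted p = 0.0121) and 1.41 ± 0.24 for High over Low (SE, edgeR adjusted p = 0.00497). High over NT did not pass without K3117 High (0.216) or without the block (0.333), and High over Low did not pass without K3117 Low (0.122) or without the block (0.569). Slc7a1, the general cationic amino acid transporter of dividing cells, had 221 and 262 CPM in High and 248 and 347 CPM in NT. These groups overlapped, with a log2 fold change of -0.29 ± 0.12 (SE, edgeR adjusted p = 0.137) that passed without K3117 NT at -0.42 (0.00905) and with upper quartile scaling (0.0395).

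Among the 3 tested SLC1 genes, Slc1a4 and Slc1a3 fell and Slc1a5 did not pass. Slc1a4 (ENSMUSG00000020142.12, chromosome 11, 20302180 to 20332713, minus strand), a sodium-dependent exchanger of alanine, serine and cysteine, had a CPM of 26.1 in NT, 24.0 in Low and 12.3 in High for K3117 and of 24.2 in NT, 18.1 in Low and 11.8 in High for K3174. NT was the highest and High the lowest label in both leukemias. The level was 12.1 ± 0.355 CPM in High and 25.2 ± 1.39 CPM in NT (SD, n = 2 each), 2.08-fold lower in High (log2 -1.06 ± 0.16, SE, edgeR adjusted p = 0.000788). High was also below Low, by a log2 fold change of -0.79 ± 0.16 (edgeR adjusted p = 0.0143), a call that was lost without K3117 Low (0.309), K3117 High (0.106) or the block (0.348).

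Slc1a3 (ENSMUSG00000005360.14, chromosome 15, 8634124 to 8710764, minus strand), the glutamate and aspartate importer, was at a CPM of 4.24 in NT, 3.52 in Low and 1.60 in High for K3117, and of 7.70 in NT, 8.22 in Low and 4.78 in High for K3174. Each leukemia had its lowest level in High, yet the High level of K3174 exceeded the NT level of K3117, so the labels overlapped. High against NT gave -1.0 ± 0.25 (log2, SE, edgeR adjusted p = 0.0158), lost without K3117 High (0.101) and without the block (0.503). Slc1a5 had 234 and 254 CPM in High and 196 and 253 CPM in NT, with overlapping groups and a log2 fold change of 0.13 ± 0.13 (SE, 95% interval of the fold 0.889 to 1.34, edgeR adjusted p = 0.615).

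None of the 6 tested SLC38 genes passed the edgeR test for High against NT, 1 had an unadjusted p under 0.05, and DESeq2 called 0. Among all 15812 genes 4544 had such an unadjusted p, and DESeq2 called 2433. The family holds the sodium-coupled importers of glutamine and alanine and was the most counted of the 7, with a summed CPM of 888.5 and 842.6 in High and of 924.9 and 1011 in NT (K3117 and K3174 in each case). Slc38a1 had 383 and 364 CPM in High and 404 and 478 CPM in NT, and Slc38a2 had 224 and 238 CPM in High and 258 and 265 CPM in NT. Both High libraries lay below both NT libraries for each of these 2 genes, by a log2 fold change of -0.24 ± 0.13 for Slc38a1 and -0.18 ± 0.11 for Slc38a2 (SE, edgeR adjusted p = 0.242 and 0.336). Without K3117 NT, Slc38a1 passed as lower at -0.39 (0.0171). In the same run Slc38a7 also passed as lower and Slc38a6 as higher, both named here after their values were seen. Slc38a10 had 239.6 and 205 CPM in High and 216 and 234 CPM in NT, with a log2 fold change of -0.03 ± 0.13 (SE, edgeR adjusted p = 0.927).

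In SLC36, Slc36a1 and Slc36a4 rose and Slc36a2 and Slc36a3 did not pass. Slc36a1 (ENSMUSG00000020261.15, chromosome 11, 55204350 to 55236330, plus strand), which moves glycine, alanine and proline out of lysosomes, was at a CPM of 38.9 in NT, 54.7 in Low and 67.7 in High for K3117, and of 47.4 in NT, 59.0 in Low and 82.4 in High for K3174. NT was the lowest and High the highest label in both leukemias. High over NT was 1.74-fold (log2 0.80 ± 0.12, SE, 95% interval 1.44 to 2.10, edgeR adjusted p = 0.000877), and it missed the threshold only without the block (0.0518) among the alternatives run.

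Slc36a4 (ENSMUSG00000043885.14, chromosome 9, 15709738 to 15743361, plus strand), a high-affinity member that carries proline and tryptophan, had a CPM of 22.6 in NT, 26.2 in Low and 37.5 in High for K3117 and of 28.4 in NT, 49.6 in Low and 81.6 in High for K3174. Its order over the labels was the same in both leukemias, with a wider range in K3174: the difference between High and NT was 1.52 in K3174 and 0.73 in K3117 (log2 CPM, 1 library each, no test). High over NT was 2.18-fold (log2 1.12 ± 0.18, SE, edgeR adjusted p = 0.00101), lost without the block (0.195). The summed CPM of the 4 SLC36 genes was 62.1 and 78.3 in NT, 81.6 and 110.7 in Low, and 106.3 and 167.1 in High.

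The 3 SLC43 genes all passed, 1 lower and 2 higher. Slc43a1 (ENSMUSG00000027075.16, chromosome 2, 84838850 to 84863594, plus strand), a facilitative carrier of leucine and other branched-chain amino acids, was at a CPM of 7.28 in NT, 2.82 in Low and 1.65 in High for K3117, and of 4.47 in NT, 2.10 in Low and 1.25 in High for K3174. Both High libraries lay below both Low libraries, and those below both NT libraries. High was 4.0-fold lower than NT (log2 -2.00 ± 0.27, SE, 95% interval of the fold 0.167 to 0.375, edgeR adjusted p = 0.000298), and this held in each of the 6 runs with 1 library left out.

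Slc43a2 (ENSMUSG00000038178.16, chromosome 11, 75531694 to 75577575, plus strand), a relative with similar substrates, had 74.4 and 65.4 CPM in High and 54.4 and 48.0 CPM in NT. Slc43a3 (ENSMUSG00000027074.14, chromosome 2, 84936579 to 84958509, plus strand), known as a carrier of purine nucleobases, had 116 and 136 CPM in High and 92.8 and 90.5 CPM in NT. High lay above NT without overlap for both, by 0.45 ± 0.12 for Slc43a2 and 0.46 ± 0.12 for Slc43a3 (log2, SE, edgeR adjusted p = 0.0241 and 0.0243). Slc43a2 was lost without K3117 High (0.16) or K3174 High (0.263), Slc43a3 without K3174 High (0.475), and both without the block (0.167 for Slc43a2 and 0.094 for Slc43a3) or with upper quartile scaling (0.0604 and 0.0598). Slc43a1 and Slc43a3 lie on the same strand of chromosome 2, 72984 bp apart, and passed in opposite directions.

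In SLC6, the sodium- and chloride-dependent transporters, Slc6a12, Slc6a6 and Slc6a4 rose and Slc6a8 fell. Slc6a12 (ENSMUSG00000030109.15, chromosome 6, 121343076 to 121365775, plus strand), the betaine and GABA transporter that cells use against osmotic stress, had the largest fold difference of the 33 genes. It was counted at a CPM of 1.38 in NT, 2.37 in Low and 13.2 in High for K3117, and of 1.01 in NT, 4.50 in Low and 13.7 in High for K3174. No label overlapped with another. The mean was 13.4 ± 0.325 CPM in High and 1.20 ± 0.266 CPM in NT (SD, n = 2 each), 10.9-fold higher in High (log2 3.44 ± 0.31, SE, 95% interval 6.79 to 17.5, edgeR adjusted p = 2.02e-05). Its neighbour Slc6a13, another GABA transporter gene, which ends 5342 bp before it on the same strand, did not pass at 0.35 ± 0.19 (log2, SE, edgeR adjusted p = 0.257).

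Slc6a6 (ENSMUSG00000030096.8, chromosome 6, 91684053 to 91759066, plus strand), the taurine transporter and the most abundant SLC6 gene here, had a CPM of 176 in NT, 201 in Low and 262 in High for K3117 and of 145 in NT, 162 in Low and 210.3 in High for K3174. In both leukemias NT was the lowest and High the highest label, and High over NT was 1.47-fold (log2 0.56 ± 0.11, SE, edgeR adjusted p = 0.00471), lost without K3117 High (0.0564) and without the block (0.15). Slc6a8 (ENSMUSG00000019558.14, chromosome X, 73673150 to 73682502, plus strand), the creatine transporter, was at a CPM of 7.85 in NT, 6.98 in Low and 4.58 in High for K3117, and of 2.67 in NT, 1.68 in Low and 1.38 in High for K3174. High was the lowest label in both leukemias, while every K3117 library lay above every K3174 library. High against NT gave -0.85 ± 0.25 (log2, SE, edgeR adjusted p = 0.0366), lost without K3117 Low (0.0574), K3117 High (0.184), K3174 NT (0.098) or K3174 High (0.0803), without the block (0.663) and in DESeq2 (0.0816).

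Slc6a4 (ENSMUSG00000020838.12, chromosome 11, 76998603 to 77032340, plus strand), the serotonin transporter, had few counts in every library but K3174 High. Its CPM was 0.331 in NT, 0.160 in Low and 0.667 in High for K3117, and 1.14 in NT, 0.360 in Low and 4.24 in High for K3174, and 5 of the 6 libraries passed the filter's level of 0.327 CPM. High against NT gave 1.59 ± 0.42 (log2, SE, edgeR adjusted p = 0.0236) and High against Low 3.06 ± 0.48 (SE, edgeR adjusted p = 0.00314). High against NT was lost without K3174 NT (0.239) or K3174 High (0.685), in DESeq2 (0.0973) and without the block (0.371), and High against Low was lost without K3174 Low (0.179), K3174 High (0.129) or the block (0.489). Tph1, the enzyme that starts serotonin synthesis in mast cells, had the same order in both leukemias, with a CPM of 0.541 in NT, 0.256 in Low and 2.40 in High for K3117 and of 1.62 in NT, 0.720 in Low and 11.5 in High for K3174. The mast cell and basophil marker sum was highest in the same K3174 High library, at 723 CPM, but unlike Slc6a4 it was higher in Low than in NT in both leukemias. The megakaryocyte marker sum had the order of Slc6a4 in both, at a CPM of 29.9 in NT, 28.3 in Low and 44.9 in High for K3117, and of 33.5 in NT, 14.9 in Low and 61.1 in High for K3174. The part of either list in these differences was not tested.

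**Figure D3:**
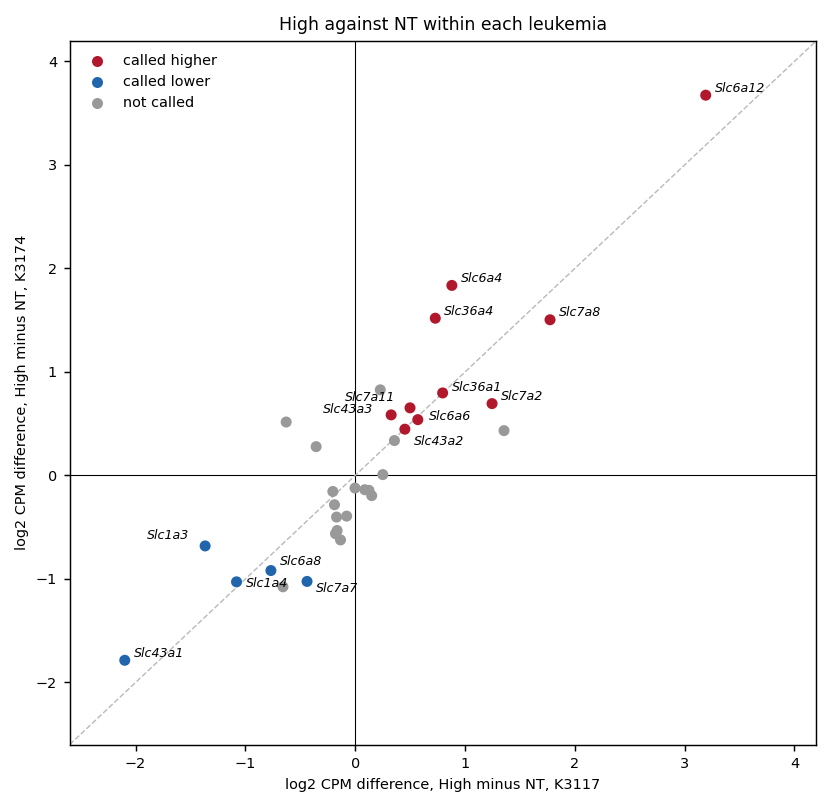
Difference of log2 CPM (prior count 2) between High and NT within K3174 (vertical) and within K3117 (horizontal) for the 33 tested genes, 1 library per label and leukemia, with the line of equal difference dashed. The 15 called genes lie in the quadrants where both leukemias move the same way, Slc6a12 farthest at 3.67 in K3174 and 3.19 in K3117.

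Within each leukemia the CPM was put in order over the labels. In both leukemias 7 of the 33 genes were lowest in NT, between in Low and highest in High (Slc36a1, Slc36a4, Slc7a8, Slc43a2, Slc43a3, Slc6a6 and Slc6a12), which is 21.2% of the genes, against 12.7% of all genes tested. The opposite order was found in both for 5 (Slc1a4, Slc43a1, Slc6a8, Slc7a6 and Slc7a7), which is 15.2%, against 11.0% of all genes. Both High libraries lay above both NT libraries for 10 of the 33 genes (30.3%, against 25.3% of all genes and 10.0% called higher) and below them for 7 (21.2%, against 25.3% of all genes and 7.32% called lower). No gene moved in opposite directions in the 2 leukemias by at least 1.5-fold in each with counting intervals that exclude no change. Slc6a9, named after its values were seen, came near. Its High minus NT difference was -0.63 in K3117 and 0.52 in K3174 (log2 CPM), and both intervals excluded no change. For Slc38a9, also named after its values were seen, the difference was -0.36 in K3117 and 0.28 in K3174. Both of its intervals excluded no change. Slc3a2 and Slc38a10 also moved in opposite directions, by less, as did Slc36a3, whose intervals included no change.

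Low was compared with NT to ask which genes differ already in the cells sorted for low DOT1L. Slc6a12 was higher and Slc43a1 lower, so 1 of 33 genes passed in each direction (3.03%), against 2.05% higher and 1.29% lower among all genes tested. Slc6a12 had 2.37 and 4.50 CPM in Low and 1.38 and 1.01 CPM in NT, 2.74-fold higher in Low (log2 1.45 ± 0.32, SE, edgeR adjusted p = 0.0316). The larger part of this lay in K3174, with a log2 CPM difference of 2.09, against 0.75 in K3117. The call was lost without K3174 NT (0.0672) or K3174 Low (0.504). Slc43a1 had 2.82 and 2.10 CPM in Low and 7.28 and 4.47 CPM in NT, 2.36-fold lower in Low (log2 -1.24 ± 0.25, SE, edgeR adjusted p = 0.0193), lost without K3117 Low (0.248) or K3174 Low (0.191). Without the block, edgeR called 0 of the 33 genes for Low against NT, and 0 of all 15812 genes. In that fit 4 of the 33 had an unadjusted p under 0.05, against 950 of all genes. DESeq2 with the block called 2 of the 33 and 588 of all genes. High and Low share the NT libraries, so the 2 comparisons with NT are not independent.

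High was compared with Low, where both groups are transduced and sorted. Slc6a4, Slc6a12, Slc7a2 and Slc7a8 were higher in High (12.1%, against 4.12% of all genes) and Slc1a4 was lower (3.03%, against 1.35% of all genes). Slc6a12 was 3.97-fold higher in High than in Low (log2 1.99 ± 0.28, SE, edgeR adjusted p = 0.00143), and Slc7a8 was 2.30-fold higher, both in each of the runs with 1 library left out. Without the block edgeR called 0 of the 33 genes here, and 0 of all 15812 genes. In that fit 9 of the 33 had an unadjusted p under 0.05, against 1238 of all genes. DESeq2 with the block called 7 of the 33, adding Slc6a6 and Slc36a4, and 878 of all genes. Slc43a1, past the threshold against NT in both sorted groups, did not pass between High and Low at -0.76 ± 0.27 (log2, SE, edgeR adjusted p = 0.170).

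Between the libraries of the 2 leukemias, 7 of the 33 genes passed. Each side is 1 leukemia seen in its NT, Low and High libraries. The p-values here measure the spread among such libraries, not the spread among leukemias. In K3174 against K3117, 4 were higher (12.1%, against 3.05% of all genes) and 3 lower (9.09%, against 6.32% of all genes). Slc6a8 averaged 1.91 ± 0.676 CPM in K3174 and 6.47 ± 1.69 CPM in K3117 (SD over 3 labels), 3.43-fold lower (log2 -1.78 ± 0.20, SE, edgeR adjusted p = 0.000182). Slc36a2, a transporter of glycine and proline, had 1.93 (NT), 1.62 (Low) and 2.63 (High) CPM in K3174 and 0.271 (NT), 0.288 (Low) and 0.800 (High) CPM in K3117, 4.84-fold higher in K3174 (log2 2.27 ± 0.34, SE, edgeR adjusted p = 0.00119). Every K3174 library lay above every K3117 library, and 4 of the 6 passed the filter's level. Slc6a4 was 4.18-fold higher in K3174 (log2 2.06 ± 0.39, SE, edgeR adjusted p = 0.00514), lost without K3174 High (0.112). Slc1a3 was 2.28-fold higher (log2 1.19 ± 0.20, SE, edgeR adjusted p = 0.00245), with each K3174 library above each K3117 library. Slc36a4, Slc38a7 and Slc7a2 made up the 7, by 0.80, -0.75 and -0.98 on the log2 scale, and Slc7a2 was lost without K3117 High (0.0557).

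The surroundings of the transporters were described with 7 lists of other amino acid genes, 156 in all, of which 151 were tested. In the list of cystine, glutathione and NRF2 genes, into which the substrate of Slc7a11 flows, 5 of 18 tested genes (27.8%) were higher in High than in NT and 0 lower. Among all genes tested 10.0% were higher and 7.32% lower, and each list's shares are read against these. Gsr, which reduces oxidised glutathione, had 771 and 1075 CPM in High and 242 and 337 CPM in NT (log2 1.68 ± 0.12, SE, edgeR adjusted p = 4.46e-06). Gstm1, a glutathione transferase, rose by 0.69, Hmox1, the heme oxygenase, by 0.64, Nfe2l2, which encodes NRF2, by 0.52, and Nqo1, a quinone reductase named after its values were seen, by 0.75 on the log2 scale. Fewer of the list, and fewer of all genes, passed without K3117 High, and 1 of the list passed without the block. Over all 15812 genes, 493 passed without the block, and DESeq2 with the block called 2433.

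In the list of ATF4 targets and serine synthesis, 5 of 26 genes were lower in High (19.2%, against 7.32% of all genes) and 0 higher (against 10.0% of all genes). Vldlr, a lipoprotein receptor, had 1.65 and 0.976 CPM in High and 10.6 and 7.97 CPM in NT (log2 -2.86 ± 0.32, SE, edgeR adjusted p = 7.88e-05). Pycr1, the last step of proline synthesis, fell by 1.01, Psat1 of the serine pathway by 0.44, Shmt2, which takes 1-carbon units from serine in mitochondria, by 0.47, and Eif4ebp1, the translation repressor under mTORC1, named after its values were seen, by 0.49 on the log2 scale. The number was lower without K3117 High or K3174 High and higher without K3117 NT, as was the number over all genes. It was 0 without the block, where DESeq2 with the block called 6. The 20 cytosolic aminoacyl-tRNA synthetases had 0 calls in edgeR and 1 call in DESeq2. An unadjusted p under 0.05 in edgeR was found for 4 of the 20, against 4544 of all 15812 genes. More of the synthetases passed without K3117 NT, as did more of all genes. The median log2 fold change of the synthetases was -0.17.

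Of the 35 genes of lysosomal amino acid sensing and mTORC1, 4 were higher in High (11.4%, against 10.0% of all genes) and 5 lower (14.3%, against 7.32% of all genes). Sesn3, a stress-induced inhibitor of mTORC1, had 4.36 and 2.52 CPM in High and 13.3 and 10.1 CPM in NT (log2 -1.80 ± 0.21, SE, edgeR adjusted p = 0.000129). Rragb, a Rag GTPase, fell by 1.43, Deptor, an inhibitor bound to mTOR, by 1.11, and Castor2, of the arginine sensor family, by 1.08 on the log2 scale. The 4 that rose, named after their values were seen, were Mitf, a transcription factor of the family that drives lysosomal genes, by 1.11, Lamtor4 and Lamtor2, subunits of Ragulator, by 0.57 and 0.41, and Fnip1, a partner of folliculin, by 0.51 on the log2 scale. Without the block 0 of the list passed in edgeR, and DESeq2 with the block called 9. Among the 18 tested transporters outside the 7 families, 3 were higher (16.7%, against 10.0% of all genes) and 1 lower (5.56%, against 7.32% of all genes). Slc32a1, the vesicular carrier of GABA and glycine, had a CPM of 2.17 in NT, 7.53 in Low and 12.9 in High for K3117 and of 2.32 in NT, 7.50 in Low and 12.9 in High for K3174, with a log2 fold change of 2.52 ± 0.21 for High over NT (SE, edgeR adjusted p = 1.13e-05). Ctns, which exports cystine from lysosomes, rose by 0.77 and Slc15a3, a lysosomal carrier of peptides and histidine, by 0.62, while Slc25a15, the mitochondrial ornithine carrier, fell by 0.67 on the log2 scale. The number passing in this list was higher without K3174 NT, unlike the number over all genes, and 2 without the block, against 4.

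In arginine, polyamine and tryptophan metabolism, 2 of 15 tested genes were higher in High (13.3%, against 10.0% of all genes) and 1 lower (6.67%, against 7.32% of all genes), shares near those of all genes. Arg2, the mitochondrial arginase, had 6.09 and 2.89 CPM in High and 1.65 and 0.263 CPM in NT (log2 2.36 ± 0.37, SE, edgeR adjusted p = 0.000913), Tph1 rose by 2.55, and Kmo, which acts on kynurenine, fell by 1.12 on the log2 scale. In glutamine, branched-chain and aspartate metabolism, 1 of 19 was higher (5.26%, against 10.0% of all genes) and 2 lower (10.5%, against 7.32% of all genes). The higher one was Ppm1k, the phosphatase that activates branched-chain keto acid oxidation, by 1.00. Lower in High were Gpt2 and Got1, transaminases of alanine and aspartate, by -0.54 and -0.51. Each of these 2 lists had 0 calls in edgeR without the block, and DESeq2 with the block called 2 for the first and 4 for the second. The number for the second was higher without K3117 NT, as was the number over all genes.

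**Figure D4:**
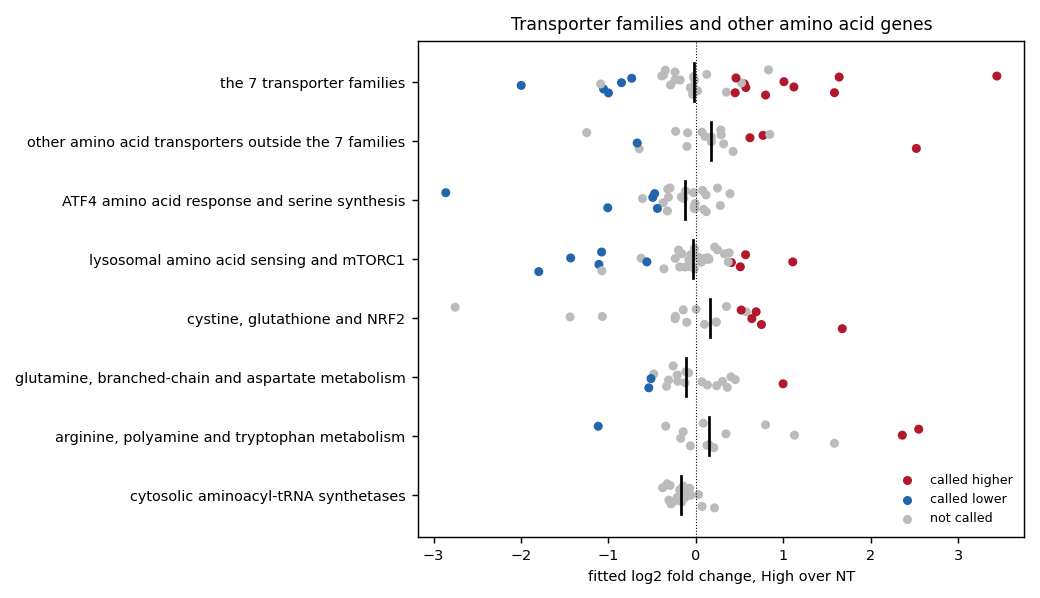
Fitted log2 fold change of High over NT for each tested gene of the 7 transporter families (top row) and of the 7 lists of other amino acid genes, with the median of each row as a bar and vertical scatter added for legibility. The cystine, glutathione and NRF2 row has 5 called genes, all to the right of 0, the ATF4 row has 5, all to the left, and the aminoacyl-tRNA synthetase row has none.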

How the data were processed

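The deposited file holds the authors' read counts for each gene ID in 6 library columns, and these counts went into the tests unchanged. Per the submitters' processing notes the tools were STAR, STAR-Fusion, kallisto and DESeq2 and the build was mm10. Their roles, and thus what counted the reads, with which annotation and strand setting, remain not given in the sources used here. Symbols and positions came from the GENCODE annotation of GRCm38, to which 99.5% of the IDs could be joined once the version was dropped, with 259 left unmatched.

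Tests were run with edgeR 4.0.16 in R 4.3.3, and with DESeq2 1.42.0 as an alternative. Genes passed edgeR's expression filter with the labels as groups (15812 genes), libraries were scaled by TMM factors from 0.973 to 1.04, and a quasi-likelihood model with label and leukemia was fitted to all 6 libraries, with 2 residual and 9.38 prior degrees of freedom and a biological coefficient of variation of 12.0%. A gene was called at a Benjamini-Hochberg adjusted p under 0.05 over all 15812 genes, and each SE is the log2 fold change over the square root of F. An adjusted p in brackets comes from this test unless DESeq2 is named. CPM values use the TMM library sizes, differences within a leukemia a prior count of 2, and lengths the union of annotated exons. The script was tested on simulated data. Floors cover counting error alone, and intervals of folds the fitted spread.

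The leukemia was a block because every label has 1 library titled with each K number. Deviations from the group mean had correlations across genes of 0.44 (High with NT), 0.57 (Low with NT) and 0.64 (High with Low), so same-numbered libraries deviated together. All pairs of libraries differed beyond sampling noise, the closest pair with a chi-square of 25.2 per degree of freedom.

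Members, gene lists, tests and alternatives were chosen with earlier results of these data known. Named genes are those past the threshold in a contrast of labels, the 10 highest per kilobase, those differing between the leukemias by a log2 fold change of at least 1, untested genes with at least 10 counts in 1 library, the 4 smallest p-values among the called genes of each list, and Dot1l. Others named are said to be so, and Slc6a13, Slc7a3, Slc36a3, Slc38a7, Slc7a6os and Slc6a20b were also named after their values were seen. Reads of opposite-strand overlaps (such as Slc43a2 with Gm45606 and Slc38a10 with Gm11769) and of the paralogs Slc6a20a and Slc6a20b are uncertain.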

Additional observations from a re-analysis of the deposited data

How the results depend on the processing

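The counts of called genes were recomputed with DESeq2 size factors, library sizes alone, upper quartile factors, DESeq2's test, other filters on low counts, no replicate block and each library left out. Without the replicate block, the number of called transporter genes was 4 for High against NT, 0 for Low against NT and 0 for High against Low, compared with 15, 2 and 5 with it. The number over all 15812 genes fell too, from 2741 to 493, from 528 to 0 and from 866 to 0. At an unadjusted p under 0.05 without the block it was 12, 4 and 9 of the 33 genes. Over all genes it was 3142, 950 and 1238. Over the runs that leave out 1 library, the number ranged from 9 to 21 for High against NT, 0 to 4 for Low against NT, 3 to 13 for High against Low and 6 to 11 for K3174 against K3117. In those runs a lone library is assumed to vary like the other groups. Called in all 6 such runs for High against NT were 6 of the 15 (Slc1a4, Slc6a12, Slc7a8, Slc36a1, Slc36a4 and Slc43a1). Over all genes, 57.8% of calls for High against NT were higher with TMM, 49.1% with library sizes alone and 43.9% with upper quartile factors. Among the transporters this gave 10 higher and 5 lower, 10 and 6, and 7 and 8. No named transporter changed sign past the threshold under any of these alternatives. The number of genes counted as expressed was 31 at 1 CPM in 2 libraries and 47 at 1 count in any library. At this depth Slc7a3 had 2 to 22 counts and Slc36a3 8 to 16 counts per library, with SEs of 0.73 and 0.54 on the log2 scale for High against NT. A difference must exceed its SE by a good margin to pass. Slc7a3 did not pass at -1.09 (edgeR adjusted p = 0.375), so a difference of that size could be missed in a gene with so few counts. The cause of the other changes was not tested.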
